A study of Mus musculus with 24 samples.

Results

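Shef6 EVs, extracellular vesicles released by the human neural stem cell line Shef6, were compared with vehicle in the brains of mice that carried a CT2A glioma and had received radiotherapy and temozolomide. The members were chosen by sample title alone, as the 3 CT2A + RT-TMZ + Shef6 EV samples and the 4 CT2A + RT-TMZ + Veh samples, 7 of 24 samples in 7 groups, and no measured value entered the choice of samples. RNA was counted without amplification on a barcoded mouse neuroinflammation panel, and each of 757 probes had a log2 normalized count in every sample. All samples are labelled as male C57BL/6J mice aged 27 weeks, whereas the study describes mice of both sexes, and the labels give the tissue as brain. Both groups had received an implant of CT2a-Luc cells, a luciferase-carrying murine glioma line, then 3 fractions of 9 Gy to the head per the labels and temozolomide at 25 mg/kg and later at 66.7 mg/kg. They differed in what was injected into the venous sinus behind the eye, which was Shef6 EV in one group and EV-free buffer in the other. The further groups used here were RT-TMZ + Veh (4 samples) and RT-TMZ + Shef6 EV (3), which had the same chemoradiation but no tumor, CT2A + RT-TMZ + UCI-191 EV (3), with vesicles of a second human neural stem cell line, and, for levels only, RT-TMZ + UCI-191 EV (3) and Control + Veh (4), the latter with neither tumor nor chemoradiation. Each kind of vesicle and the implant came from 1 cell line each. The methods describe dissection of the prefrontal cortex and hippocampus, the legend of the study's expression plots names the hippocampus alone, and the labels name no region for any sample.

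Brain endothelial cells line the vessels of the central nervous system and form the blood-brain barrier, which tight junction proteins such as claudin-5 seal and receptor tyrosine kinases such as TIE1 and FLT1 help to maintain. Ionizing radiation is known to injure this lining, and gliomas remodel it. Neural stem cell vesicles carry proteins and small RNAs that recipient cells can take up. In bulk tissue, fewer cells of a type and less RNA per cell cannot be told apart.

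The vehicle samples had been scaled more strongly than the EV samples. The scaling factor recovered from the grid of low values was 1.32 to 1.42 in CT2A + RT-TMZ + Veh and 1.01 to 1.18 in CT2A + RT-TMZ + Shef6 EV, and the implied total counts were 861796 to 936128 and 1008851 to 1195581. The median log2 value of a sample was higher with Shef6 EV by 0.29 on average (exact permutation test, two-sided p = 0.114, the smallest p of 3 against 4 samples being 0.0571). Replicates correlated with r of 0.965 to 0.990 in the vehicle group and 0.987 to 0.994 in the Shef6 EV group. Neuronal, astrocytic, oligodendroglial, microglial and endothelial markers were all above background, taken as 20 normalized counts (log2 4.32), in both groups. Of 7 T and NK cell markers, 5 had a vehicle mean under background and 6 a Shef6 EV mean under it, and the summed level of the 7 was 170 to 193 and 153 to 186 normalized counts. Ms4a1, the only B cell marker measured, was also under background in both.

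With limma, 28 of 757 probes were higher with Shef6 EV (3.7%) and 10 were lower (1.32%) at an adjusted p under 0.05 (154 and 68 before adjustment, at p under 0.05). Of these, 25 of the rises and all 10 falls carry a gene symbol. The largest rise was that of a probe without a symbol, and such probes are in no gene list below. The rises centred on the vessel wall, and the falls on ribosomal and respiratory chain transcripts, the immediate early gene Fos and the chemokine gene Cx3cl1. Neither group overlapped the other in any of the 38 probes, and the same held for 240 of the 757 probes (31.7%). Over all probes, called or not, 469 of 757 were higher with Shef6 EV, against which the counts of higher genes in the lists below are read. The rises ran from 0.45 to 2.14 on the log2 scale and the falls from 0.30 to 1.27, against a median over all probes of 0.10. With each sample centred on its median, which moved the median of all probes to -0.18, 14 probes were higher and 12 lower, and without the scaling factor, which moved it to 0.46, 295 were higher and 1 lower. Leaving out any single Shef6 EV sample, or vehicle replicate 1 or 3, ended every call, while leaving out vehicle replicate 2 gave 115 calls and leaving out vehicle replicate 4 gave 144. The methods' t-test with Benjamini-Hochberg adjustment called 0 probes at the same threshold, and 302 higher and 157 lower at the much looser exploratory cutoff of the methods (134 higher and 65 lower before adjustment, at p under 0.05).

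The start regions of the 2 vessel genes and the 2 ribosomal genes with the smallest p are shown as examples. Each run holds 250 bases before and 50 after the RefSeq transcription start on GRCm38.p6, as the gene's strand reads, with capitals marking GGAA, the core of ETS factor sites, on either strand, and the longer CCGGAAG that contains it. Where GGAA and CCGGAAG overlap they share capitals.
Tie1 (chr4:118489800-118490099, minus strand): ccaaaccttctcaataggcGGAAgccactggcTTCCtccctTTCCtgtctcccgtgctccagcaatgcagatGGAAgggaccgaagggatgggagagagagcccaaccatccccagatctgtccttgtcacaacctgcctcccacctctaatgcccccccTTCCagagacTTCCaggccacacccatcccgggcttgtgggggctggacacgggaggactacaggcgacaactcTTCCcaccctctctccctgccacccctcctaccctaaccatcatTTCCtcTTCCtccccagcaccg
Cldn5 (chr16:18776597-18776896, plus strand): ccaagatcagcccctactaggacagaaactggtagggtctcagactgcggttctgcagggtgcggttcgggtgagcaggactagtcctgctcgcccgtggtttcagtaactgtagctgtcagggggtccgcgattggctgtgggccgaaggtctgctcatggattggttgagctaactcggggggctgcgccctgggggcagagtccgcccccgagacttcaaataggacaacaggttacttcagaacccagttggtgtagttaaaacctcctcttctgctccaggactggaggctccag
Rps10 (chr17:27635195-27635494, minus strand): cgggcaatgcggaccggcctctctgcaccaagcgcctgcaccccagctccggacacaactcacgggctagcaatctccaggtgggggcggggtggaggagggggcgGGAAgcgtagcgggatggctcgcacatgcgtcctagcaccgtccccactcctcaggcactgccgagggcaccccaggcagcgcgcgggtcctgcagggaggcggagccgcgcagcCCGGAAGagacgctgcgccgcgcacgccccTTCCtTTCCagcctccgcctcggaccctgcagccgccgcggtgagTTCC
Rps21 (chr2:180257129-180257428, plus strand): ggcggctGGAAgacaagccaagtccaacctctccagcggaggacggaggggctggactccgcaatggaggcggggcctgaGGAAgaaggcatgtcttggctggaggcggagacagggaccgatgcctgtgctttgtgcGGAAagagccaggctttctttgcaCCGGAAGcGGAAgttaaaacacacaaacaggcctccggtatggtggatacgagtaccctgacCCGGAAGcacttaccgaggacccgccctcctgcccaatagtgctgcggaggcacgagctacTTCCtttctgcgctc
The Tie1 window held 9 GGAA cores and the Cldn5 window 0, while the Rps10 window held 5 and the Rps21 window 7, and CCGGAAG occurred once in Rps10 and at 2 places in Rps21. Over the first window of all 27025 genes listed, 95.9% held GGAA and 9.12% held CCGGAAG, and over the 566 of 703 panel genes that matched, 94.7% and 9.19%. Among all called genes of the 2 lists that matched, CCGGAAG occurred in 2 of 7 windows of the vessel list and in 2 of 6 of the ribosomal list. The matches describe the letters of these windows only.

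Vessel genes were the group with the most rises. Of 20 endothelial and vessel wall genes listed, 18 were measured. All 18 were higher with Shef6 EV and 11 rose, with a median log2 fold change of 0.87 against 0.10 over all 757 probes. The vessel median was 0.58 with median centring and 0.62 with quantile normalization, against -0.18 and -0.05 over all probes. Of the 11 rises, 6 still passed with either of these scalings, and 11 without the scaling factor. Flt1, a receptor for vascular endothelial growth factor, had log2 values of 6.19, 6.61, 6.44 and 7.78 in the vehicle samples and 8.55, 8.73 and 8.64 in the Shef6 EV samples. The groups did not overlap, and vehicle replicate 4 lay closest to the EV samples. Flt1 rose by 1.89 (standard error 0.35, limma adjusted p = 0.0282), a 3.69-fold higher level. Tie1, an orphan receptor of the angiopoietin system, was 6.08, 6.31, 6.01 and 6.85 with vehicle and 7.77, 7.98 and 8.37 with Shef6 EV, a rise of 1.73 (standard error 0.24, limma adjusted p = 0.0282). The vehicle samples all lay more than the range of the EV samples below them.

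Pecam1, an adhesion molecule at endothelial junctions, was 7.23, 8.0, 7.89 and 8.45 with vehicle and 9.24, 9.39 and 9.79 with Shef6 EV. It rose by 1.58 (standard error 0.28, limma adjusted p = 0.0282). Lsr, a protein of tricellular junctions, was 7.03, 6.70, 7.30 and 7.83 against 8.25, 8.73 and 8.93 and rose by 1.42 (standard error 0.28). In both genes the highest vehicle sample was replicate 4. Icam2, another adhesion molecule of the endothelium, was 6.16, 6.48, 6.37 and 6.57 against 7.11, 7.44 and 7.52, a rise of 0.96 (standard error 0.17). Cldn5, the tight junction claudin of the blood-brain barrier, was 9.98, 9.83, 10 and 9.73 against 10.54, 10.55 and 10.56, and its 3 EV samples lay within 0.02 of each other. It rose by 0.67 (standard error 0.09, limma adjusted p = 0.0282). The remaining rises among the vessel genes were Esam, a junctional adhesion molecule (0.88), the glucose transporter gene Slc2a1 (0.84), the laminin receptor subunit Itga6 (0.83), the organic anion transporter gene Slco2b1 (0.64) and Fbln5, described with the matrix. The 7 vessel genes that did not pass had log2 fold changes of 0.28 to 1.04. The largest was that of Clic4, an intracellular chloride channel protein (1.04, limma adjusted p = 0.0869). Tmem88b, which is also in the myelin and oligodendrocyte list, had 0.91. It was followed by Emcn (0.86), Tm4sf1 (0.73), Jam2 (0.44), Myct1 (0.38) and Nostrin (0.28).

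**Figure D1:**
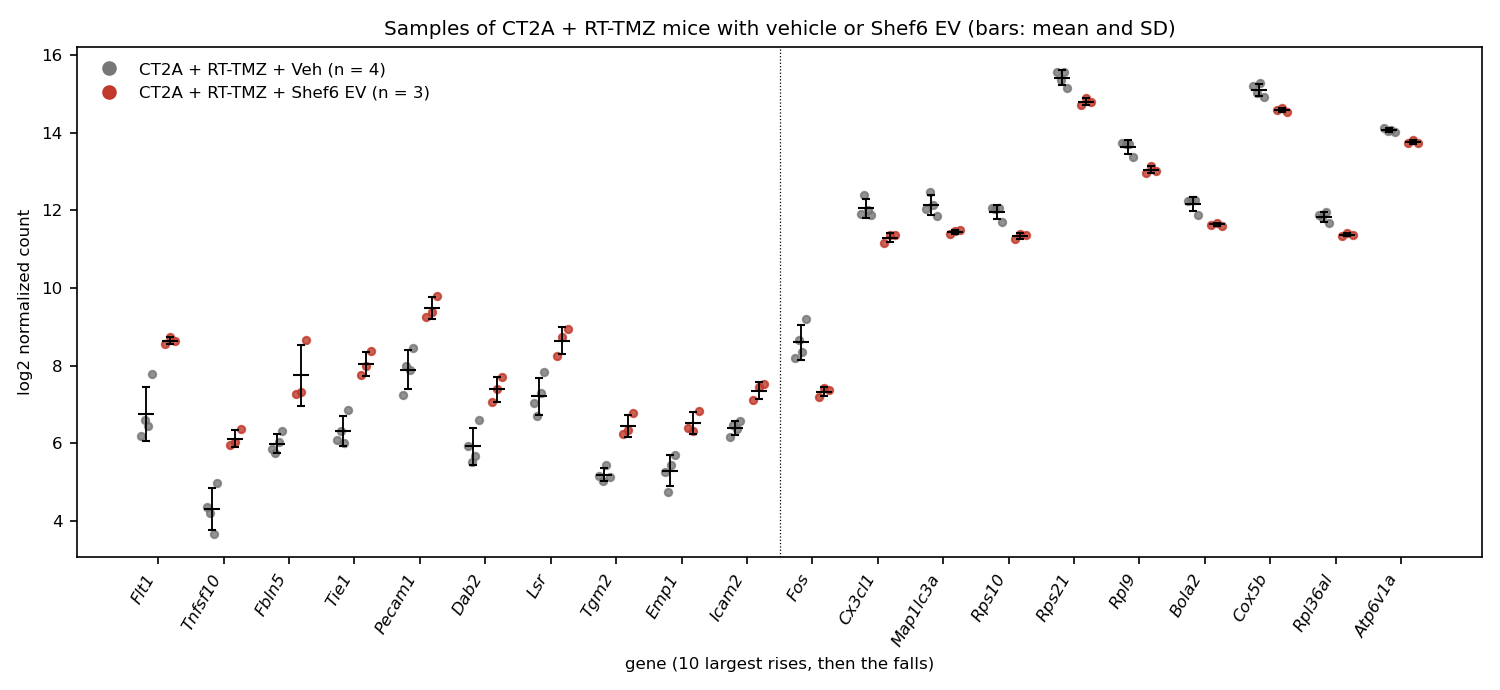
Log2 normalized count (vertical axis) of the 10 genes with the largest rises and the 10 that fell (horizontal axis) in the 4 CT2A + RT-TMZ + Veh samples (grey) and the 3 CT2A + RT-TMZ + Shef6 EV samples (red), with black bars for the mean and SD. In each gene the groups do not overlap, and the falls other than Fos lie at levels above 11.

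The summed level of the 6 endothelial markers showed the same split, at 1735 to 2140 normalized counts in the vehicle samples and 3397 to 4163 in the Shef6 EV samples. Ttr, the transthyretin gene of the choroid plexus, moved with it in part. With vehicle its log2 values were 7.49, 5.31, 7.23 and 13.94, and with Shef6 EV they were 9.73, 14.31 and 14.86, and the groups overlapped (log2 fold change 4.47, standard error 2.09, limma adjusted p = 0.199). Vehicle replicate 4, with the high Ttr, was the vehicle sample nearest to the EV samples in 20 of the 25 rises and 9 of the 10 falls, and in 298 of all 703 probes with a symbol. With Ttr as a covariate 0 of 756 probes passed (61 higher and 40 lower before adjustment, at p under 0.05). The part of choroid plexus tissue in the result was not tested.

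Genes of the extracellular matrix, adhesion and the cytoskeleton were higher as well, in 17 of 20 measured members (22 listed), with 4 rises and a median of 0.71 (0.42 with median centring and 0.38 with quantile normalization). Fbln5, an elastic fiber protein, was 5.86, 5.75, 6.04 and 6.32 with vehicle and 7.28, 7.31 and 8.66 with Shef6 EV. It rose by 1.76 (standard error 0.35, limma adjusted p = 0.0291), and by 1.30 without Shef6 EV replicate 3, its highest sample. Tgm2, a crosslinking transglutaminase, was 5.16, 5.03, 5.44 and 5.14 against 6.24, 6.34 and 6.77 and rose by 1.26 (standard error 0.19). Emp1, a membrane protein of reactive and growing cells, was 5.27, 4.75, 5.44 and 5.69 against 6.39, 6.32 and 6.84, a rise of 1.23 (standard error 0.26). In Fbln5 and Tgm2 the gap between the groups was larger than the whole range of the vehicle samples, and in Emp1 it was not.

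Dab2, an endocytic adaptor, was 5.92, 5.51, 5.68 and 6.59 with vehicle and 7.06, 7.39 and 7.71 with Shef6 EV and rose by 1.46 (standard error 0.29, limma adjusted p = 0.0289). Tnfsf10, which encodes the death ligand TRAIL, was 4.37, 4.21, 3.67 and 4.97 against 5.96, 6.02 and 6.36. Its vehicle mean, 4.30, lay under background, so the rise of 1.81 (standard error 0.30) is uncertain in size, and with 20 added to every count it was 1.15 (limma adjusted p = 0.0262). Among 27 apoptosis and death receptor genes measured, Tnfsf10 was the single rise, and 19 were higher, with a median of 0.23 that was -0.05 with median centring, 0.02 with quantile normalization and 0.14 without vehicle replicate 2.

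The cytokine receptor and NF-kB genes were higher in 23 of 29 members, and 1 rose. Their median of 0.47 was 0.18 with median centring, 0.17 with quantile normalization and 0.25 without vehicle replicate 2. That gene, Osmr, the oncostatin M receptor, was 7.11, 6.70, 6.77 and 7.24 with vehicle and 7.86, 7.73 and 7.99 with Shef6 EV, a rise of 0.91 (standard error 0.17, limma adjusted p = 0.0282). Among 28 reactive astrocyte genes, 22 were higher, and Osmr and Emp1 rose. The median of these astrocyte genes, 0.38, was 0.10 with median centring, 0.17 with quantile normalization and 0.14 without vehicle replicate 2. Sox9, an astrocyte transcription factor, rose by 0.70 and was the single rise among 15 astrocyte identity genes (median 0.10). In the interferon list 21 of 24 genes were higher, with a median of 0.32 that was 0.04 with median centring, 0.05 with quantile normalization and 0.20 without Shef6 EV replicate 3. In it Ifih1, a sensor of double-stranded RNA, rose by 0.89 (standard error 0.18). Gbp2, an interferon-induced GTPase, had 1.09 (limma adjusted p = 0.0516).

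The other rises were Mvp, the major vault protein gene (0.95), Pros1, a ligand of the TAM receptors (0.93), Hells, a chromatin remodeler of dividing cells (0.85), the kinase gene Map3k1 (0.80), Dock2, a guanine nucleotide exchange factor of leukocytes (0.76), the sialyltransferase gene St3gal6 (0.70) and Kdm5d, a Y-linked histone demethylase gene (0.45). The group means of Kdm5d were 9.00 to 9.46 over the 7 groups, and whether the sex of the mice had a part in its rise was not tested. Dock2 was 6.57, 6.73, 6.86 and 6.90 with vehicle and 7.64, 7.52 and 7.42 with Shef6 EV, with no overlap. Hells was the single rise among 20 proliferation genes, of which 11 were higher (median 0.07).

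Of the 10 falls, 6 were in the list of ribosomal, translation and respiratory chain genes, where 14 of 15 measured members were lower (median -0.43). That list also holds Bola2, which is among these falls, Ptms and Anapc15, which are of none of these kinds. Rps10, a protein of the small ribosomal subunit, was 12.07, 12.02, 12.07 and 11.70 with vehicle and 11.26, 11.38 and 11.37 with Shef6 EV and fell by 0.63 (standard error 0.11, limma adjusted p = 0.0282). Rps21 was 15.56, 15.36, 15.57 and 15.16 against 14.71, 14.89 and 14.79 and fell by 0.62 (standard error 0.11). Rpl9, of the large subunit, was 13.73, 13.71, 13.71 and 13.36 against 12.97, 13.14 and 13.01 and fell by 0.59 (standard error 0.11). In these ribosomal genes vehicle replicate 4 was again the vehicle sample closest to the EV samples.

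Bola2, an iron-sulfur cluster protein gene, was 12.25, 12.26, 12.26 and 11.89 with vehicle and 11.63, 11.68 and 11.59 with Shef6 EV and fell by 0.53. Cox5b, a subunit of cytochrome c oxidase, was 15.19, 15.02, 15.27 and 14.91 against 14.58, 14.64 and 14.53 and fell by 0.51. Rpl36al was 11.88, 11.82, 11.96 and 11.66 against 11.33, 11.41 and 11.36 and fell by 0.46. Their standard errors were 0.11, 0.10 and 0.09, and each pair of groups was separated. The median of the list was -0.71 with median centring, and without the scaling factor it was -0.07 and 10 of 15 stayed lower, so the size of these falls moves with the scaling. So do the calls. Of the 6 falls, 5 still passed with median centring, 0 with quantile normalization, 0 without the scaling factor and 1 without the mean trend. All falls except Fos were among the 189 probes with the highest levels, where the median log2 fold change was -0.06, against 0.11 to 0.25 in 3 like-sized classes of lower level.

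Fos, an immediate early gene of neuronal activity, was 8.19, 8.66, 8.34 and 9.21 with vehicle and 7.20, 7.42 and 7.37 with Shef6 EV. It fell by 1.27 (standard error 0.24, limma adjusted p = 0.0282) and was the single call among 10 immediate early and activity-dependent genes, 6 of which were higher. Egr1, another such gene, was 11.40, 11.59, 11.58 and 11.86 against 11.24, 11.30 and 11.20 (log2 fold change -0.36, limma adjusted p = 0.0799). Fos was 8.40, 10.97 and 9.62 in the 3 CT2A + RT-TMZ + UCI-191 EV samples, a wider spread than in either group compared here.

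Cx3cl1, the neuronal chemokine fractalkine that microglia sense through CX3CR1, was 11.90, 12.40, 12.01 and 11.87 with vehicle and 11.16, 11.35 and 11.37 with Shef6 EV, and it fell by 0.75 (standard error 0.14, limma adjusted p = 0.0282). It was the single call among 40 neuronal and synaptic genes, of which 26 were lower (median -0.11). Map1lc3a, an autophagosome protein gene, was 12.03, 12.48, 12.14 and 11.86 against 11.39, 11.47 and 11.49 and fell by 0.68 (standard error 0.14). Atp6v1a, a subunit of the lysosomal proton pump, was 14.13, 14.03, 14.06 and 14.02 against 13.73, 13.81 and 13.74 and fell by 0.30, but without the scaling factor it was higher by 0.06 (limma adjusted p = 0.628). These were the 2 falls among 27 autophagy and lysosome genes (median -0.05).

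The summed level of the 5 neuronal markers was 53365 to 69982 normalized counts in the vehicle samples and 43655 to 48445 in the Shef6 EV samples, and those ranges did not overlap. Vehicle replicate 2 had the highest sum and also the lowest sum of the 3 oligodendrocyte markers measured, 1510 against 3789 to 6643 in the other vehicle samples. Mef2c, a transcription factor of excitatory neurons, was 13.93 in that sample and 11.67 to 11.91 in the other vehicle samples, and 12.04, 12.07 and 12.09 in the Shef6 EV samples. The part of tissue composition in the falls was not tested. The neuronal median was -0.39 with median centring and turned to 0.25 without the scaling factor.

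The lists of microglial, complement and peripheral immune genes gave 1 call. Dock2, the leukocyte gene that rose, is in none of these lists. Among 14 homeostatic microglia genes 8 were higher (median 0.10) and Slco2b1, also counted with the vessels, was the single rise. None of 17 genes of activated microglia (median -0.02), 10 of complement (0.18), 12 of monocytes, macrophages and neutrophils (0.16) or 28 of lymphocytes (-0.01) passed in limma. The complement list names 11 genes, of which C3 had no probe with that symbol. Of the 28 lymphocyte genes, 10 were above background. Foxp3, the regulatory T cell factor, had log2 values of 4.71, 4.31, 3.67 and 4.14 with vehicle and 3.39, 3.38 and 3.19 with Shef6 EV. The EV samples and the vehicle mean of 4.21 were under background, so the size of the fitted change, -0.89 on the log2 scale, is uncertain, and it did not pass (standard error 0.26, limma adjusted p = 0.071). With 20 added to every count it was -0.37 (limma adjusted p = 0.0846). No member passed among 21 myelin, 37 DNA damage, 11 p53 or 48 chromatin genes measured (medians 0.59, 0.01, 0.06 and 0.15), and the chromatin list does not hold Kdm5d and Hells. The myelin genes were higher in 20 of 21, with a median of 0.14 without vehicle replicate 2, and in vehicle replicate 2 their median lay at -1.28 relative to the vehicle mean.

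A few further genes that the study's discussion names for Shef6 EV with and without the tumor were looked up after the other values were seen, and none passed in limma. Ppp3r2, a calcineurin subunit gene, was 4.37, 5.36, 3.67 and 4.44 with vehicle against 5.66, 5.34 and 5.27, with overlap (difference 0.96, limma adjusted p = 0.127). Il15ra, the interleukin-15 receptor alpha chain gene, was 5.89, 6.15, 6.44 and 6.11 against 6.54, 6.62 and 6.75 and did not overlap (difference 0.49, limma adjusted p = 0.11). The log2 fold changes of Slamf8, Mapk12 and Gzmb were 0.29, -0.03 and -0.21, and every sample was under background for Gzmb, the granzyme B gene.

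**Figure D2:**
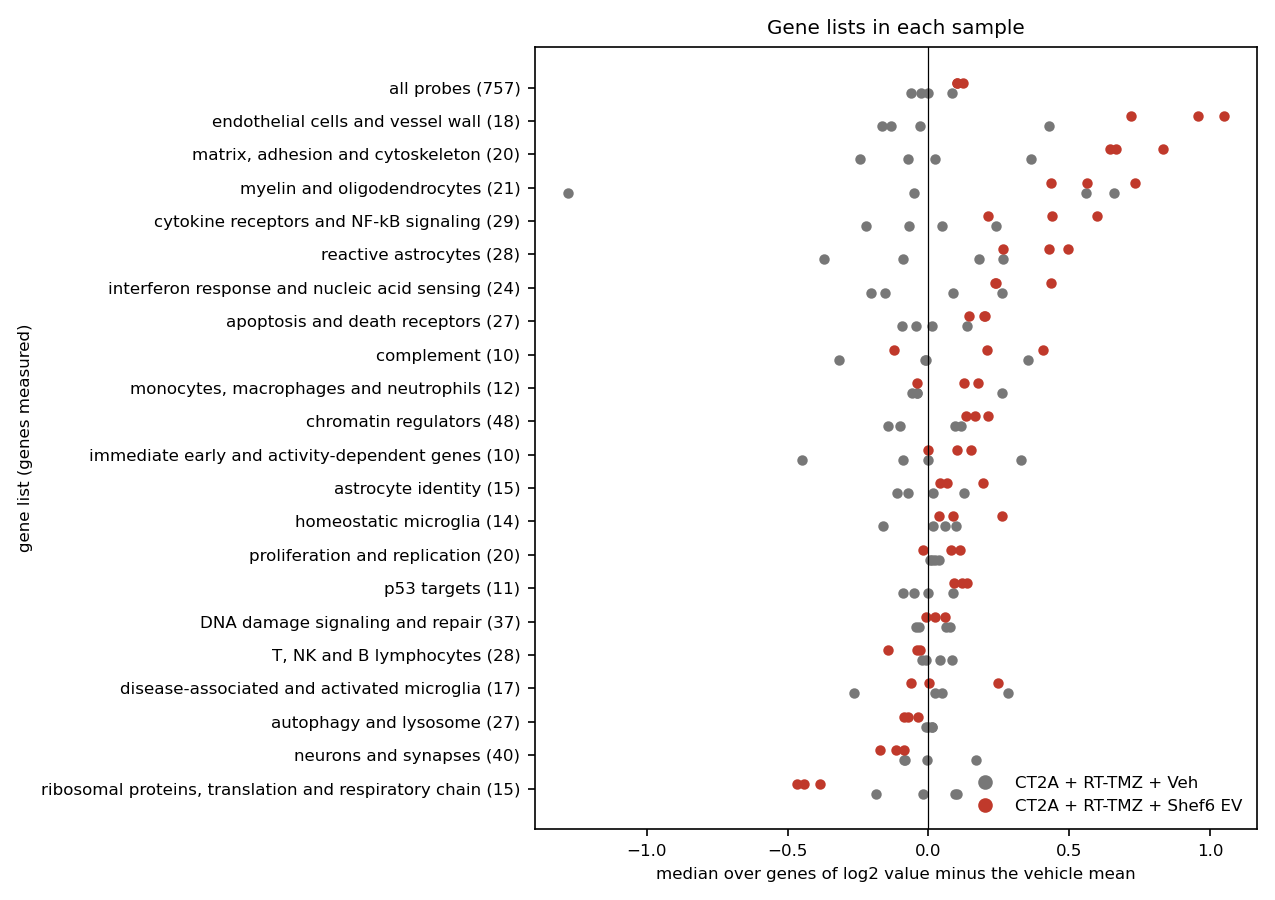
Median over the genes of each list of the log2 value minus the CT2A + RT-TMZ + Veh mean (horizontal axis) in each CT2A + RT-TMZ + Veh sample (grey) and each CT2A + RT-TMZ + Shef6 EV sample (red), by gene list with the genes measured in brackets (vertical axis). Vessel genes lie highest with Shef6 EV and ribosomal genes lowest, without overlap with the vehicle samples in either list.

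Across the 7 groups, the vehicle group stood apart more often than the Shef6 EV group. The 35 genes with calls were picked for a difference between these 2 groups, so an outer mean in 1 of them is partly built in. The mean scaling factor was 1.37 in CT2A + RT-TMZ + Veh and 0.89 to 1.07 in the 6 other groups. The CT2A + RT-TMZ + Veh mean was outside the means of the 6 other groups in 34 of the 35 genes with calls, and in 374 of the 703 probes with a symbol. The Shef6 EV mean lay within the range of the 5 remaining groups in 18 of the 35, and in 438 of the 703. Tie1, for example, had means of 7.95 to 8.23 in the 5 remaining groups, 8.04 with Shef6 EV and 6.31 with vehicle. Flt1 had 8.41 to 8.76 in those 5 groups, 8.64 with Shef6 EV and 6.75 with vehicle. In 15 of the 35 (and 205 of the 703) the Shef6 EV mean lay outside those of all 6 other groups. It was the lowest for 7 falls, which were Cx3cl1 (11.29), Map1lc3a (11.45), Fos (7.33), Rps10, Rps21, Rpl9 and Cox5b. It was the highest for 8 rises, which were Osmr (7.86 against 6.96 to 7.73 elsewhere), Cldn5, Dock2, Icam2, Itga6, Kdm5d, Lsr and Tgm2.

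**Figure D3:**
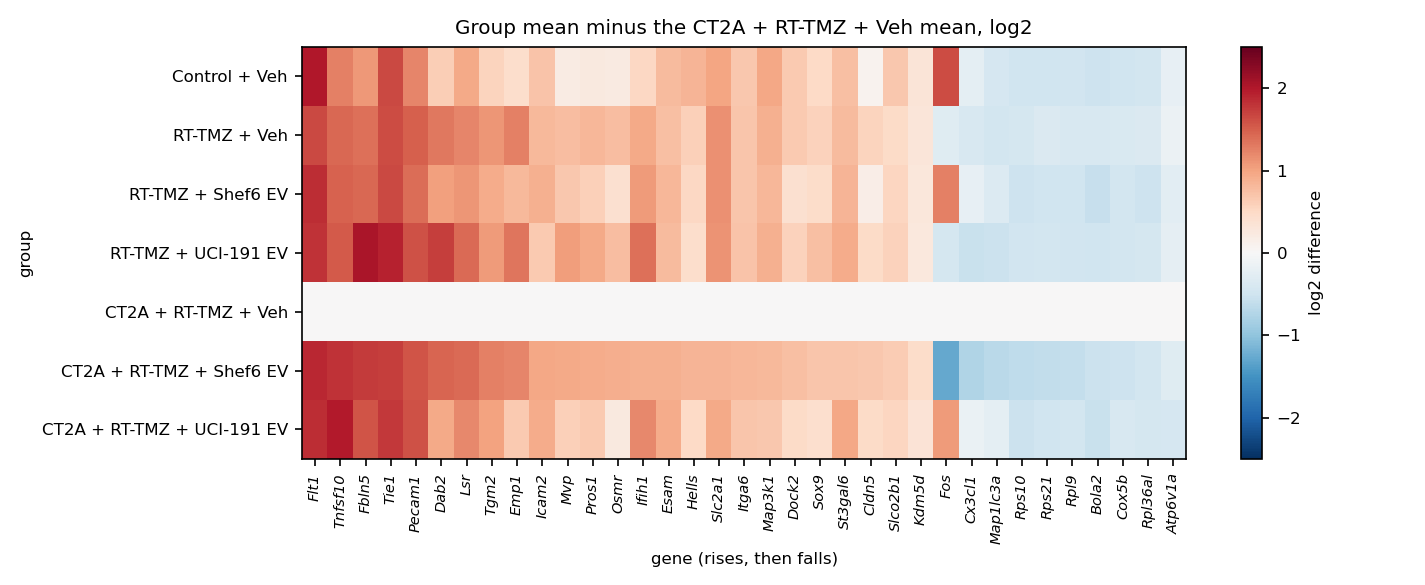
Group mean minus the CT2A + RT-TMZ + Veh mean on the log2 scale (colour) for the 35 genes with calls (horizontal axis, rises then falls) in the 7 groups (vertical axis). The vehicle row is 0 by construction, and the 25 rises are positive in all 6 other groups, whereas Fos differs in sign between groups.

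Whether the Shef6 EV effect depended on the tumor was tested as the difference between the effect with CT2A and the effect without it. At an adjusted p under 0.05, 46 of 757 probes differed (6.08%), 37 with a higher and 9 with a lower effect in CT2A-bearing mice (153 and 61 before adjustment, at p under 0.05). In tumor-free mice 0 probes passed in limma for Shef6 EV against vehicle (20 higher and 72 lower before adjustment, at p under 0.05). The 9 differences among the vessel genes were all positive. Cldn5 had an effect of 0.67 with CT2A and -0.38 (standard error 0.12) without, a difference of 1.04 (standard error 0.15, limma adjusted p = 0.0115). Tie1 had 1.73 and 0.01, a difference of 1.71 (standard error 0.29, limma adjusted p = 0.0143). Dock2 had 0.76 and -0.25, a difference of 1.02 (standard error 0.17), and Pros1 had 0.93 and -0.24, a difference of 1.16 (standard error 0.21).

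Osmr had an effect of 0.91 with CT2A and -0.36 (standard error 0.16) without, a difference of 1.27 (standard error 0.24, limma adjusted p = 0.0212). Cx3cl1 had -0.75 and 0.19, a difference of -0.95 (standard error 0.18, limma adjusted p = 0.0216). Bmi1, a Polycomb repressor gene, had 0.32 (limma adjusted p = 0.058) and -0.11, a difference of 0.43, and Kdm5d had 0.45 and -0.02, a difference of 0.48 (both limma adjusted p = 0.0216). Of the 35 genes with calls, 26 were also among these differences, although the CT2A samples enter both tests. Fos had -1.27 with CT2A and 1.55 (standard error 0.81) without, and its difference of -2.82 did not pass (standard error 0.93, limma adjusted p = 0.0688). The median difference over all probes was 0.17, and -0.17 with median centring, which gave 7 calls. Leaving out RT-TMZ + Shef6 EV replicate 2 gave 0 calls. The difference of effects was not fitted without the scaling factor.

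**Figure D4:**
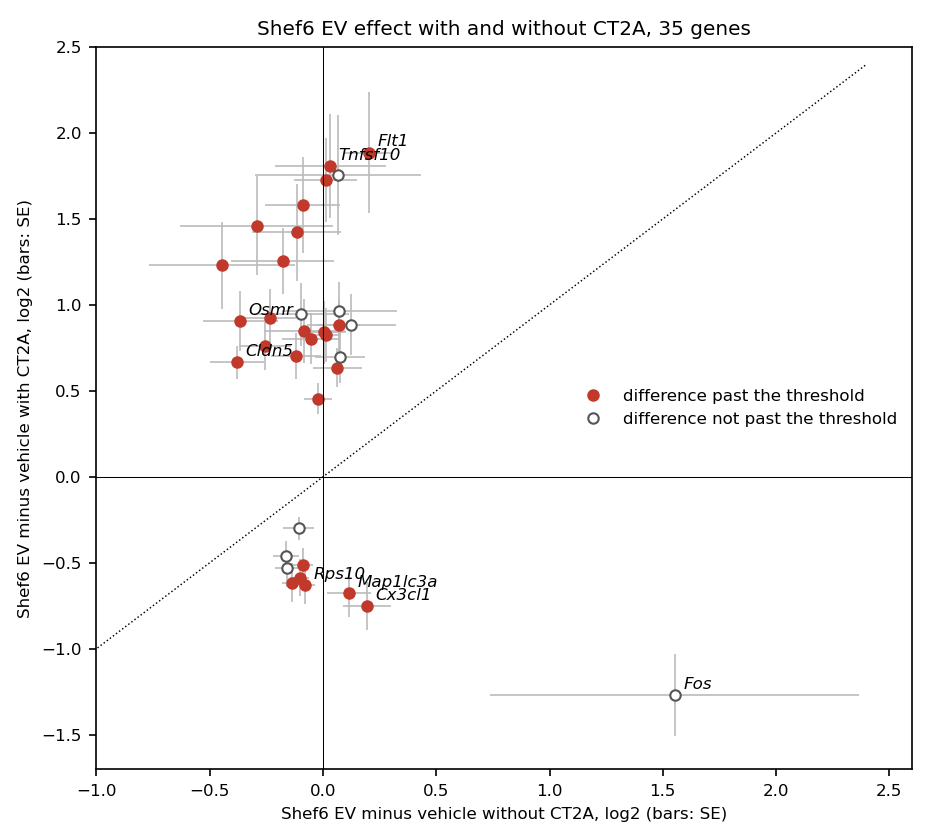
Shef6 EV minus vehicle on the log2 scale without CT2A (horizontal axis) and with CT2A (vertical axis) for the 35 genes with calls, with bars for the standard error, filled where the difference passed the threshold and open where it did not. The dotted line marks equal effects, and the rises lie near 0 on the horizontal axis, from -0.44 to 0.20.

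Shef6 EV and UCI-191 EV were compared directly in CT2A-bearing mice, a comparison that does not use the vehicle samples. Of 757 probes 50 differed (6.61%), 19 higher and 31 lower with Shef6 EV (112 and 90 before adjustment, at p under 0.05). None of the 18 vessel genes passed in limma, and 12 of them were higher with Shef6 EV (median 0.07, against 0.04 over all probes). Tie1 was 7.80, 8.14 and 8.30 with UCI-191 EV, and its difference of -0.04 had a standard error of 0.19. None of the 15 genes in the ribosomal and respiratory chain list passed either (median -0.09). In the neuronal and synaptic list, where 23 of 40 genes were lower with Shef6 EV and 17 higher, 9 passed lower and 1 passed higher. Mef2c was 13.71, 13.91 and 14.00 with UCI-191 EV against 12.04, 12.07 and 12.09, a difference of -1.81 (standard error 0.08, limma adjusted p = 7.3e-05).

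Tbr1, a transcription factor of cortical projection neurons, was 10.32, 10.62 and 10.84 with UCI-191 EV and 9.32, 9.32 and 9.31 with Shef6 EV, a difference of -1.28 (standard error 0.13, limma adjusted p = 0.00353). The tubulin regulator gene Stmn1 differed by -1.19 (standard error 0.12), the synaptic gene Clstn1 by -0.73 (standard error 0.07), the AMPA receptor subunit gene Gria4 by -0.73 (standard error 0.09) and Lingo1, an inhibitor of axon growth, by -0.55 (standard error 0.07). Nrp2, a semaphorin receptor gene, was 9.53, 9.27 and 9.19 with UCI-191 EV and 10.25, 10.23 and 10.31 with Shef6 EV, a difference of 0.93 (standard error 0.09, limma adjusted p = 0.00353). In each of these genes the groups did not overlap, which is partly built in, since they were named for the smallest p of this comparison. The share of all probes without overlap was not counted here. Mef2c and Tbr1 also differed within other groups. In the 3 RT-TMZ + Shef6 EV samples Mef2c was 14.38, 14.10 and 11.91 and Tbr1 10.86, 10.78 and 9.18, and in CT2A + RT-TMZ + Veh replicate 2 they were 13.93 and 10.52. The labels give no brain region per sample, the study's legend names the hippocampus for these groups, and the part of dissection in these differences was not tested.

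Of the 35 genes with calls against vehicle, 2 also passed between the vesicle types. Cx3cl1 was 11.65, 11.86 and 12.10 with UCI-191 EV and differed by -0.58 (standard error 0.12, limma adjusted p = 0.0392). Map1lc3a was 11.84, 11.87 and 11.95 and differed by -0.44 (standard error 0.05, limma adjusted p = 0.00743). Both were lower with Shef6 EV than with UCI-191 EV in every sample. Osmr was 7.26, 7.54 and 6.80 with UCI-191 EV, a difference of 0.66 that did not pass (standard error 0.20, limma adjusted p = 0.0962), and that of Fos, -2.33, did not pass either (standard error 0.57, limma adjusted p = 0.0612). C4a, a complement component gene, was higher with Shef6 EV by 0.90 (standard error 0.18, limma adjusted p = 0.036), at 11.41, 11.08 and 10.87 against 10.42, 10.35 and 9.90.

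**Figure D5:**
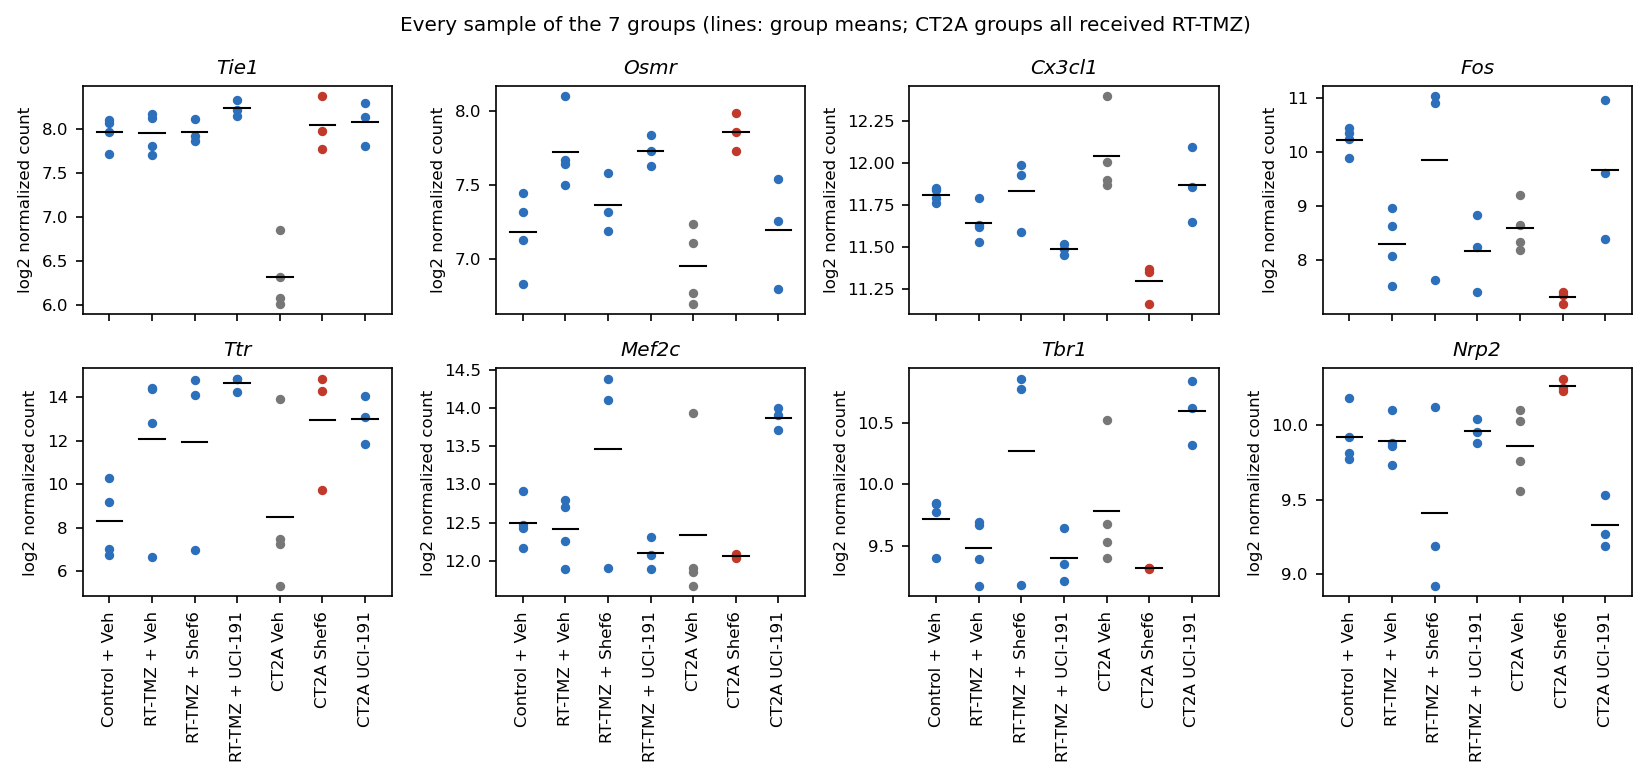
Log2 normalized count (vertical axes) of 8 genes in every sample of the 7 groups (horizontal axis), with lines for group means, CT2A + RT-TMZ + Veh in grey and CT2A + RT-TMZ + Shef6 EV in red. Tie1 is low in the CT2A vehicle group alone, Cx3cl1 and Fos are lowest with Shef6 EV, and Ttr, Mef2c and Tbr1 spread within several groups.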

How the data were processed

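RNA of brain tissue was hybridized to the nCounter Mouse Neuroinflammation panel, and the authors normalized the counts to positive controls and then to housekeeping genes. The deposited values are log2 normalized counts of 757 probes, of which 703 have 1 gene symbol, 54 have none and 0 have several. Samples were grouped by their titles. Each comparison was fitted with limma 3.58.1 in R 4.3.3 on its own groups (mean trend, two-sided, Benjamini-Hochberg over 757 probes, threshold 0.05). The scale of each sample was recovered from the grid of its low values, where 100% lay within 0.15 of a whole number, and all 40 simulated factors were recovered within 1%. In simulated data of the comparison with vehicle (757 probes), 42% of probes changed by 0.5 and 79% of those changed by 1 (log2) passed the test. Descriptions and figures used Python 3.11.15, pandas 2.3.3, numpy 2.4.6, scipy 1.17.1 and matplotlib 3.10.9.

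Genes were named where they passed the threshold against vehicle, where the study's account of expression in these mice names them, as Ttr, as the 3 smallest p of each of 22 lists, and as the 8 smallest p of the other comparisons. A few further genes were named after their values were seen. Samples were chosen by title, but the comparison and the gene lists were chosen with earlier results of these data known, so no count of them is independent support. Alternatives were other scalings, a pseudocount, a filter on low values, 1 fit of all 7 groups, the methods' t-test, no trend, a replicate block, Ttr as a covariate and each sample left out. The labels do not say whether samples came from separate mice, so p-values measure the spread between these samples. Promoter sequences came from RefSeq. Cp is not analysed here.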

Additional observations from a re-analysis of the deposited data

Results flagged for a closer look

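Of 83 named genes, 33 passed limma's test of the difference, beside 46 of all 757 probes (6.08%). Many were named for a call with CT2A or for a small p in this test, so their count is no independent support. The median difference over all probes was 0.17, and -0.17 with median centring, which kept 7 of the 46 calls. In the 33 named genes the fitted Shef6 EV effect differed between mice with and without CT2A on the deposited scaling. It was higher with CT2A, by the log2 difference given, for Tie1 (1.71), Cldn5 (1.04), Tgm2 (1.43), Tnfsf10 (1.78), Esam (0.81), Pecam1 (1.67), Slco2b1 (0.57), Map3k1 (0.86), Pros1 (1.16), Dock2 (1.02), Flt1 (1.68), Itga6 (0.81), Sox9 (0.82), Osmr (1.27), Dab2 (1.75), Lsr (1.54), Kdm5d (0.48), Emp1 (1.67), Slc2a1 (0.84), Hells (0.93), Lair1 (0.70), Axl (0.65), Lilrb4a (1.78), Gbp2 (1.47) and Bmi1 (0.43). It was lower for Rps10 (-0.55), Rps21 (-0.48), Rpl9 (-0.48), Cx3cl1 (-0.95), Cox5b (-0.42), Map1lc3a (-0.79), Atg9a (-0.40) and Mbd3 (-0.32). The vehicle group with CT2A, with a mean scaling factor of 1.37 against 0.93 in RT-TMZ + Veh, enters each of these differences.

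Among the 4 CT2A + RT-TMZ + Veh samples, 1 sample lay far from the others for 4 of 83 named genes, judged by its gap to the nearest sample over the whole range. The ratio was 0.865 for Rps10, 0.946 for Rpl9 and 0.973 for Bola2, each with replicate 4 low, and 0.894 for Mef2c, with replicate 2 high, above Dixon's critical value in each case. Chance alone passes this limit in about 1 in 20 groups.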

How the results depend on the processing

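Against vehicle, the 38 calls (28 higher, 10 lower) became 17 with quantile normalization, 296 without the scaling factor, 61 among probes above background, 237 with all 7 groups in 1 fit, 0 with the methods' t-test and 0 with Ttr as a covariate. Leaving out 1 sample gave 0 to 144. The difference of the Shef6 EV effects (46 calls) became 7 with median centring, 25 with quantile normalization and 171 with all 7 groups in 1 fit, and 0 to 158 with 1 sample left out. Against UCI-191 EV (50 calls) the count became 31 with quantile normalization, 25 with all 7 groups in 1 fit, 1 with the methods' t-test and 25 without the mean trend, and 10 to 64 with 1 sample left out. The difference in sample medians was 0.64 without the scaling factor (exact permutation test, two-sided p = 0.0571, the smallest possible) and 0.21 to 0.36 with 1 sample left out. Of the 35 named calls against vehicle, all kept their direction in 16 of 17 alternatives, and without the scaling factor Atp6v1a turned to 0.0595. Most of these alternatives could not have reversed a direction, so this count is no measure of stability. In each of the 35, the Shef6 EV samples lay wholly above or wholly below the vehicle samples. Leaving out a sample or adding a pseudocount therefore cannot change the sign. The t-test, the fit without the mean trend, the filter on low values and the fit of all 7 groups keep the same log2 fold change. The other scalings and Ttr as a covariate could have changed a sign. Of these 35 genes, 19 still passed with median centring and 13 with quantile normalization.

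With the replicate number as a block, the calls were 71 against vehicle, 69 for the difference of effects and 11 against UCI-191 EV. The numbers do not pair the samples, since same-numbered samples deviated from their group means with r of 0.136, -0.078 and -0.217 against vehicle and 0.122, 0.122 and -0.061 against UCI-191 EV.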
